A study of Rattus norvegicus with 14 samples.

Results

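The genes described here encode the 3 chains of fibrinogen (Fga, Fgb and Fgg) and 4 further plasma proteins of clotting: prothrombin (F2), plasminogen (Plg), protein C (Proc) and antithrombin (Serpinc1). The 7 names were chosen with earlier results of these data known. Probe sets were then taken by symbol alone: every one whose symbol in the platform annotation was, or held, one of the 7 names. That gave 10 probe sets for 6 genes, of 4736 genes that had a probe set with a single symbol, and of 8740 probe sets besides controls. Serpinc1 was not analysed here. Liver RNA came from male rats, 74 days old, fed for 53 days on a diet that either supplied enough vitamin A (sufficient) or lacked it (deficient). The labels give no strain, no vitamin A dose and no other treatment. Each diet had 7 single-channel Affymetrix arrays, 4 made from about 10 µg of total RNA (numbers 1 to 4) and 3 from about 2 µg (numbers 1, 2 and 4).

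Fibrinogen is made in hepatocytes as a hexamer that holds each of the 3 chains in a pair, and the liver secretes it into plasma. Prothrombin is the precursor of thrombin, the protease that cuts fibrinogen to start a fibrin clot. Protein C, once activated, inactivates clotting cofactors, and plasminogen is the precursor of plasmin, which dissolves fibrin. Fibrinogen is also an acute phase protein whose transcripts rise in response to interleukin 6, and prothrombin and protein C need vitamin K for the modification that lets them bind membranes.

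The 3 fibrinogen genes lie next to each other, in the order Fgg, Fga, Fgb, with 0 other genes between them in the RefSeq table of the GRCr8 rat assembly. Their promoters are shown because levels of the 3 chains are compared from animal to animal. There Fga with Fgb held under all 12 alternatives run and the pairs with Fgg did not. Whether the promoters bear on those levels was not tested. The stretches are the 250 bases before the annotated start from RefSeq (GRCr8), read 5′ to 3′ on the gene's strand. Fga lies at chr2:170671919-170672168 on the plus strand (the first of 2 windows listed for it), Fgb at chr2:170700876-170701125 on the minus strand and Fgg at chr2:170652833-170653082 on the plus strand. Capitals mark matches, on either strand, to 3 motifs: GTTAAT, a core of the site of the hepatocyte factor HNF1, CTGGGAA, an interleukin 6 response element, and TTGCNNAA, a core bound by C/EBP factors. No printed matches overlap.
Fga: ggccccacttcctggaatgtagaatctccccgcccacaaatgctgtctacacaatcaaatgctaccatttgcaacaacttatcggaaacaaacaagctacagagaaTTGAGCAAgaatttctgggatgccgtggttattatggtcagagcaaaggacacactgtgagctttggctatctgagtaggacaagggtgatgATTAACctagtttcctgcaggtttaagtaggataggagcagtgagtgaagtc
Fgb: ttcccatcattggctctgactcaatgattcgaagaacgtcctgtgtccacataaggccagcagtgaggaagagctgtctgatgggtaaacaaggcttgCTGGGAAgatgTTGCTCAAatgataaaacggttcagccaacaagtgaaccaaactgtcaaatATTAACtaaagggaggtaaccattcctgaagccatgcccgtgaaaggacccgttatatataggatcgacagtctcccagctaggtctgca
Fgg: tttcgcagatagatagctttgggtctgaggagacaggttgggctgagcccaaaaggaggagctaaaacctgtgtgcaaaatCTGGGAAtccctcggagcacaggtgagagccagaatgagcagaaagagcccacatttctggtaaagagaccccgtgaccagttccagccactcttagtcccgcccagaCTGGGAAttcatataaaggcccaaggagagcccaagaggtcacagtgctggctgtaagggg

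Searched in the table's whole window of 250 bases before and 50 after the start, GTTAAT was found 52 bases before the start of Fga and 90 before that of Fgb. CTGGGAA was found 152 bases before the start of Fgb and at 169 and 61 bases before that of Fgg. TTGCNNAA was found 144 bases before the start of Fga and 141 before that of Fgb. In the same window GTTAAT was also found 38 bases before the start of F2 and 67 before that of Plg, which held CTGGGAA at 245 as well. The promoter of Proc was not searched. Of 33469 promoter windows of this length in the rat table, 7.45% held GTTAAT, 11.3% held CTGGGAA and 10.6% held TTGCNNAA. These matches describe the letters of the windows and do not show that a factor binds there.

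Each array had been scaled to one level before deposit, with a trimmed mean intensity between 1001.9 and 1002.1 and a median between 175.1 and 231 over the 14 arrays. Which arrays came from one liver is not stated in the labels. After the shift between amounts was removed, the arrays sharing a diet and a number were averaged, and each average is called an animal, so that each diet had n = 4 and animal 3 of each diet rests on its 10 µg array alone. P-values therefore rest on the scatter of such averages, which may be technical, and the small number of arrays limits precision. Levels are log2 of the scaled intensity plus 16, given as mean ± SD over 4 animals, and differences are deficient minus sufficient on that scale with their standard error (SE). The test of diet was limma's moderated test over 5244 probe sets that passed a filter on low values, with p-values adjusted by Benjamini-Hochberg and a threshold of 0.05. In bulk liver RNA, fewer hepatocytes and less RNA per hepatocyte cannot be told apart.

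The tested members were among the brighter features of every array. Of the 10 member probe sets, 9 passed the filter on low values. Sufficient and deficient livers alike gave deposited intensities above 4987 for each of these 9 probe sets. The bright Fgb probe set U05675_at ranged from 34575 to 55016, and on each array only 26 to 53 of the other probe sets were brighter. The 10th, the Fgb probe set M35602_at, lay between 10.2 and 97.3 and was too dim to be tested, although it is annotated to the same gene. Its levels were 5.60 ± 0.12 in sufficient and 5.35 ± 0.54 in deficient livers. The SEs of the 9 tested diet differences ran from 0.09 to 0.15, against a median SE of 0.17 over all tested probe sets. Their SDs within a diet, pooled over both diets, ran from 0.091 to 0.234, against a median of 0.235 over all tested.

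None of the 9 tested member probe sets passed the test of diet. Over all 5244 probe sets, 1.72% passed in limma. Of the members, 8 of 9 differences were above 0, where 58.4% of all tested probe sets were, and the median member difference was 0.15 against a median of 0.04 over all tested. At an unadjusted p under 0.05, 2 members were higher in deficient livers, one of Fga and that of Proc, against 9.06% of all tested probe sets. Taken one at a time and with the scaling used, the 95% intervals of the 9 tested differences reached up to 0.54 on the log2 scale, a ratio of 1.45 (Proc). They reached down to -0.43, a ratio of 0.741 (an Fga probe set).

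**Figure D1:**
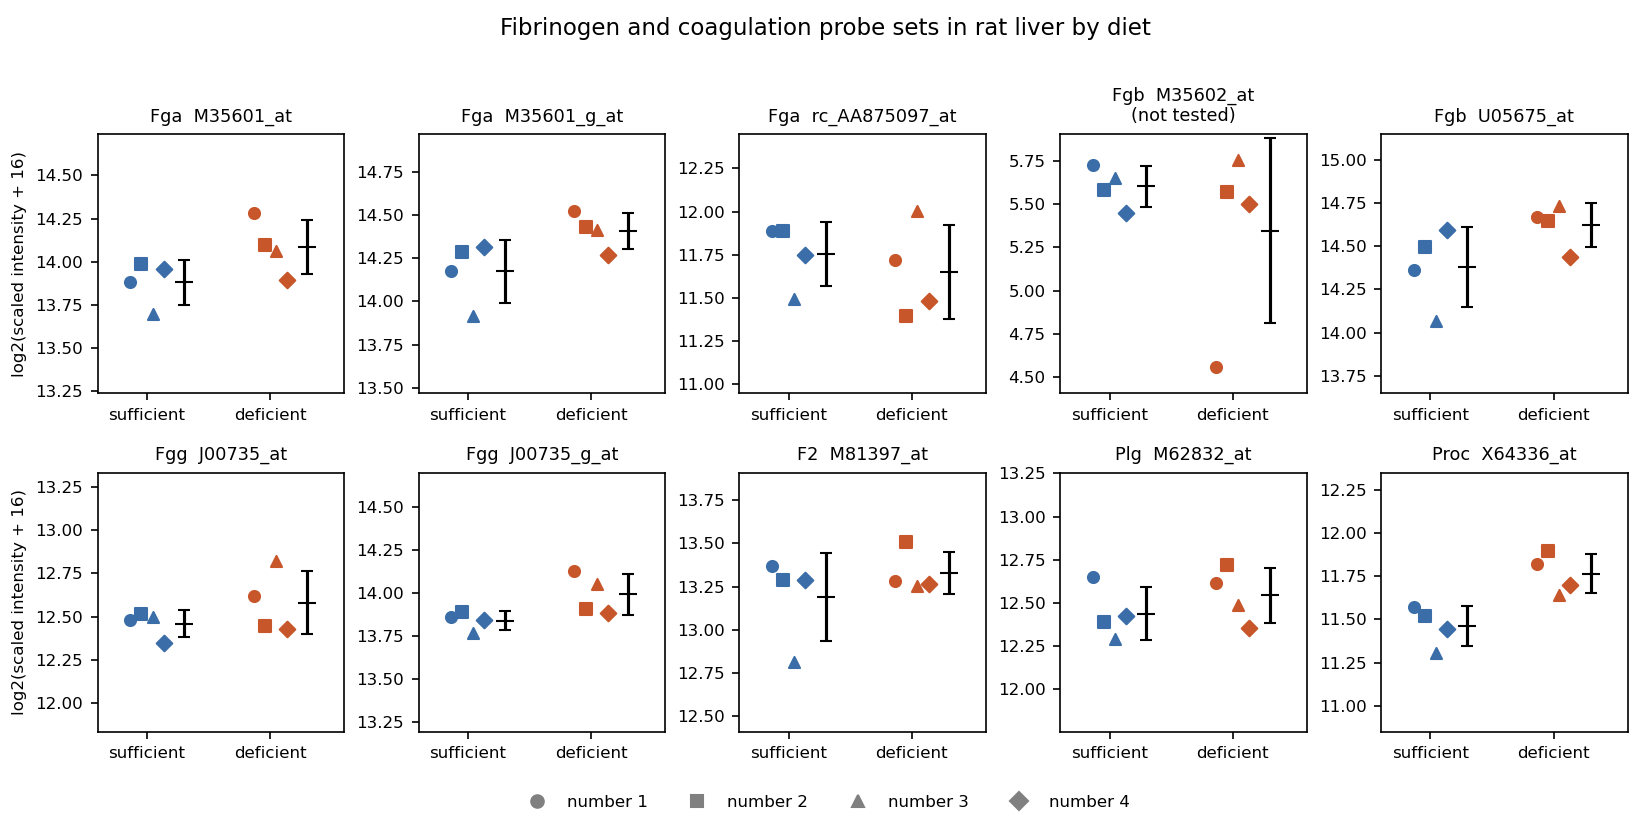
Levels, as log2 of scaled intensity plus 16, of each of the 10 member probe sets in 4 sufficient and 4 deficient animals; symbols give the animal's number, bars the mean ± SD, and every panel spans 1.5 units. Only the Proc panel shows no overlap, and in 7 of the 9 tested panels the lowest point is sufficient animal 3.

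Among the fibrinogen chains, the alpha chain gene Fga, whose product is cut by thrombin to release a fibrinopeptide, had 3 tested probe sets that did not move alike. By the brightest, M35601_g_at, the sufficient animals 1 to 4 were at 14.18, 14.29, 13.92 and 14.31 and the deficient animals at 14.52, 14.43, 14.42 and 14.27. Deficient animals 1, 2 and 3 lay above every sufficient animal, and deficient animal 4 lay within the sufficient range. The difference was 0.23 (SE 0.11, 95% interval 0.00 to 0.47, limma adjusted p = 0.340), a ratio of 1.18. The probe set M35601_at, from the same source sequence by its name, gave 14.08 ± 0.16 in deficient and 13.88 ± 0.13 in sufficient livers, a difference of 0.20 (SE 0.10). The third, rc_AA875097_at, gave 11.65 ± 0.27 against 11.75 ± 0.19, a difference of -0.10 (SE 0.15), so that the 3 probe sets of this gene did not share a direction.

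Fgb encodes the beta chain, which also carries a fibrinopeptide that thrombin removes. By U05675_at the sufficient animals 1 to 4 were at 14.36, 14.49, 14.07 and 14.60 and the deficient animals at 14.67, 14.65, 14.74 and 14.44. The groups overlapped through deficient animal 4, and sufficient animal 3 stood lowest of the 8. The difference was 0.24 (SE 0.12, 95% interval -0.02 to 0.51, limma adjusted p = 0.396), a ratio of 1.18.

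Fgg encodes the gamma chain, through which fibrinogen binds its platelet receptor and is crosslinked in the clot. By its brighter probe set, J00735_g_at, the sufficient animals were at 13.86, 13.89, 13.77 and 13.84 and the deficient animals at 14.13, 13.90, 14.05 and 13.88. The sufficient values were the tightest of any member, with an SD of 0.05, and 3 deficient animals lay above all of them, deficient animal 2 by little. The difference was 0.15 (SE 0.09, 95% interval -0.04 to 0.34, limma adjusted p = 0.495). The second probe set, J00735_at, gave 12.58 ± 0.18 in deficient and 12.46 ± 0.08 in sufficient livers, a difference of 0.12 (SE 0.11).

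The protease precursor F2 showed the part that single animals played. The sufficient animals were at 13.37, 13.29, 12.81 and 13.29 and the deficient animals at 13.29, 13.51, 13.25 and 13.26. Sufficient animal 3 stood below all others, deficient animal 2 stood above the other deficient animals, and the remaining 6 animals of both diets lay between 13.25 and 13.37. The difference was 0.14 (SE 0.13, 95% interval -0.15 to 0.42, limma adjusted p = 0.712), and it was 0.01 without sufficient animal 3.

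For Plg, the plasmin precursor, the sufficient animals were at 12.65, 12.39, 12.29 and 12.42 and the deficient animals at 12.62, 12.72, 12.49 and 12.35. The ranges of both diets overlapped over most of their length. The difference was 0.11 (SE 0.12, 95% interval -0.15 to 0.36, limma adjusted p = 0.771).

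Proc, which encodes the anticoagulant protease precursor protein C, was the member with the clearest separation. The sufficient animals were at 11.57, 11.52, 11.31 and 11.44 and the deficient animals at 11.82, 11.89, 11.64 and 11.70. All 4 deficient animals lay above all 4 sufficient animals, which held for 1 of the 9 tested members and for 5.84% of all tested probe sets. The difference was 0.30 (SE 0.11, 95% interval 0.07 to 0.54), a ratio of 1.23, and it did not pass over all probe sets (limma adjusted p = 0.215). It passed when the 14 arrays were fitted as separate samples with amount as a covariate (0.30, SE 0.08, limma adjusted p = 0.0275), a fit that counts arrays of one number as independent. With diet and number as a random replicate block the adjusted p was 0.0756, and over all 20 alternative fits it ran from 0.0275 to 0.518.

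**Figure D2:**
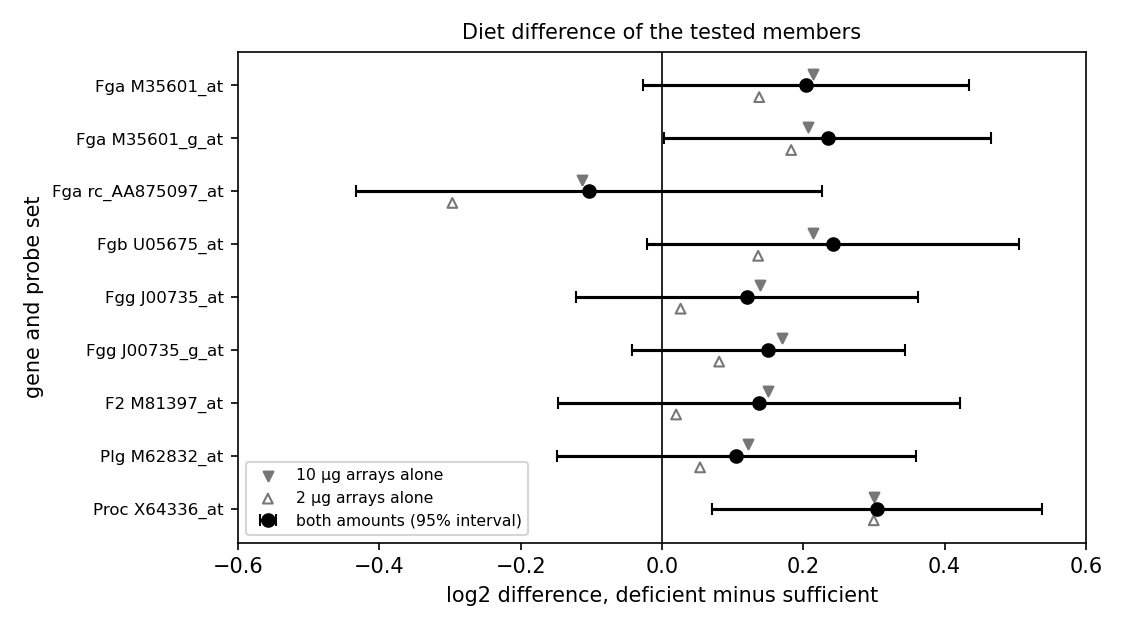
Deficient minus sufficient difference in log2 level for the 9 tested member probe sets, with 95% intervals from limma (black), and the same difference in the 10 µg and 2 µg arrays alone (triangles). The differences run from -0.10 to 0.30, and the intervals of Proc and of M35601_g_at lie above 0.

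Sufficient animal 3 weighed on several of these differences. It was the lowest of the 8 animals in 7 of the 9 tested member probe sets, against 16.2% of all tested probe sets. Without it the differences were 0.15 for Fga (M35601_g_at), 0.14 for Fgb, 0.13 for Fgg (J00735_g_at), 0.06 for Plg and 0.25 for Proc, and none passed. Deficient animal 4 weighed the other way, as the lowest deficient animal in 6 of the 9. Without deficient animal 4 the same differences were 0.28, 0.30, 0.19, 0.17 and 0.33, and none passed. Sufficient animal 3 also had the lowest summed level of the 7 tested hepatocyte markers, among them albumin (Alb) and the protease inhibitor Serpina1, at 143959 in scaled intensity. The other sufficient animals were at 162436, 183014 and 177418 and the deficient animals between 166090 and 197672. Its sums of platelet, macrophage, stellate and erythroid markers were the highest of the sufficient animals, and its endothelial sum, 567, was the lowest of them. All 7 of the hepatocyte markers had differences above 0, with a median of 0.17, and 0 passed in limma (2 at an unadjusted p under 0.05). The part of this shared shift in the member differences was not tested.

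Levels of Fga and Fgb varied together from animal to animal, and those of Fgg followed them less closely. Over the 8 animals, with the brightest probe set of each chain, Fga and Fgb had a Pearson r of 0.962 (exact permutation p = 0.000496, adjusted over the 3 pairs p = 0.00149) and a Spearman rho of 0.929 (exact p = 0.00223, adjusted 0.00670). Fga and Fgg had an r of 0.828 (exact p = 0.00987, adjusted 0.0148) and a rho of 0.833 (exact p = 0.0154, adjusted 0.0154). Fgb and Fgg had an r of 0.757 (exact p = 0.0330, adjusted 0.0330) and a rho of 0.833 (exact p = 0.0154, adjusted 0.0154). Without the 2 animals farthest from the median of the first chain, r was 0.943 for Fga and Fgb, 0.634 for Fga and Fgg and 0.566 for Fgb and Fgg, so the link of Fga with Fgb held over the middle animals and those with Fgg were smaller there.

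The exact permutations moved values freely over both diets, so a diet difference shared by the chains enters their p-values. With each diet's mean removed the 3 values of r were 0.944, 0.679 and 0.592, and no p-value was computed for these. After quantile normalization, which forces all arrays to one distribution, Fga and Fgb kept an r of 0.960, whereas Fga and Fgg fell to 0.383 and Fgb and Fgg to 0.299 (exact permutation adjusted p = 0.473 for both). The adjusted p of Fga and Fgg also rose over 0.05 without deficient animal 1 (r = 0.784) or deficient animal 3 (r = 0.824). That of Fgb and Fgg did so without sufficient animal 1 (0.746), sufficient animal 3 (0.674), deficient animal 1 (0.818), deficient animal 3 (0.695) or deficient animal 4 (0.754). The log2 difference between the Fgb and the Fga probe set varied from animal to animal with an SD of 0.06, although each alone varied with an SD of 0.22 and 0.19.

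**Figure D3:**
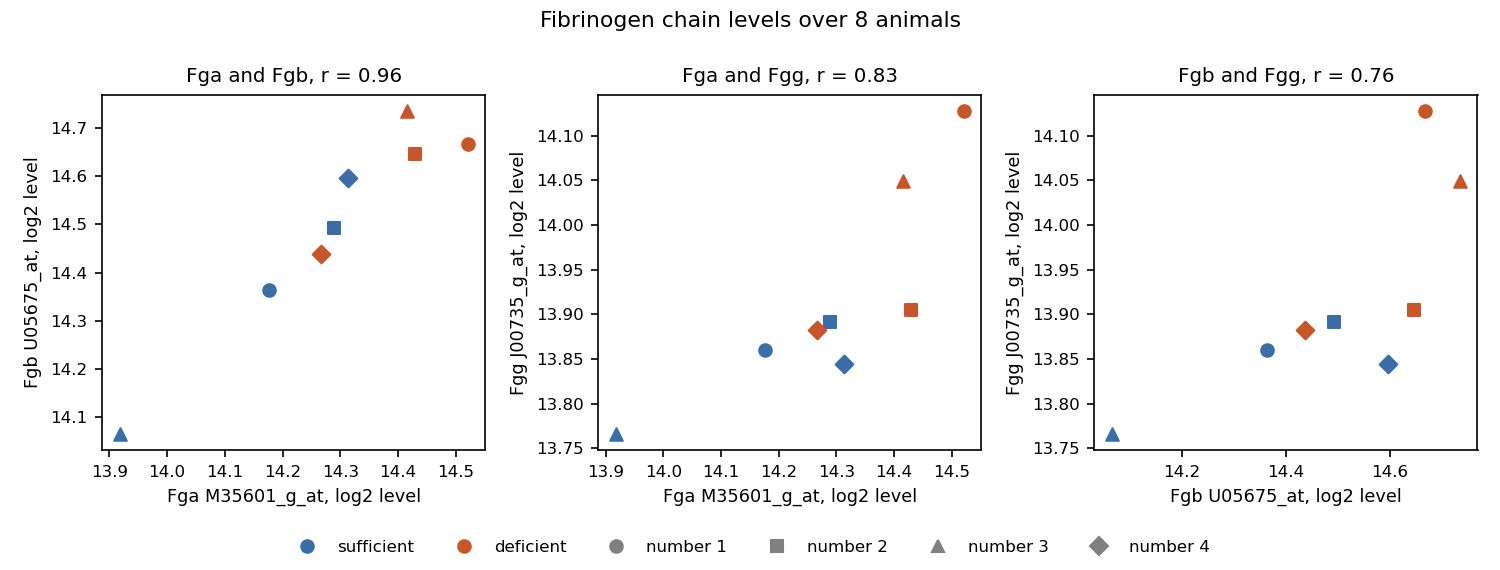
Levels (log2 of scaled intensity plus 16) of the brightest Fga, Fgb and Fgg probe sets against each other; each point is 1 of 8 animals, colour gives the diet and symbol the number. Sufficient animal 3 is lowest in all 3 chains, and Fga and Fgb follow a line closely (r = 0.96).

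Against the mean of the 3 chains, as a description over 8 animals, r was 0.757 for Proc, 0.689 for F2 and 0.555 for Plg. The second Fga probe set M35601_at had an r of 0.945, whereas rc_AA875097_at had 0.312 and the second Fgg probe set J00735_at 0.448. Of 4320 other tested probe sets with 1 symbol, the 5 most like the chain mean were those of Cyba, a subunit of the phagocyte oxidase, at r = 0.940, the chromatin protein Mta1 at 0.939, the translation factor Eif2b1 at 0.936, the actin-binding Triobp at 0.935 and the Fc receptor Fcgrt at 0.933. Over these probe sets the median r with the chain mean was 0.06, and the lowest r between 2 chains lay above 95.7% of them. The measures are unlike, since that r is between single chains and theirs is with the mean of 3. All of these r share the same 8 animals and array scaling.

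The labelled amount of RNA was the other factor in the design. In the fit of 14 arrays with diet as a covariate, none of the 9 tested members passed in limma, where 0% of all tested probe sets did. At an unadjusted p under 0.05 there were 0 members, against 6.62% of all tested probe sets. Plg had the largest difference, 2 µg minus 10 µg, at -0.16 (SE 0.09, limma adjusted p = 0.824). In the 6 pairs of arrays that share diet and number its differences were -0.13, -0.05 and -0.34 in sufficient and -0.36, -0.05 and -0.23 in deficient livers for numbers 1, 2 and 4. All 6 pairs were lower at 2 µg, which held for 2 members, Plg and Fga by M35601_g_at, and for 4.31% of all tested probe sets.

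With diet and number as a replicate block, the Plg difference was -0.19 (SE 0.06, unadjusted p = 0.00540, limma adjusted p = 0.224) and that of Fga by M35601_g_at was -0.09 (SE 0.04, adjusted p = 0.386). Again no member passed, where 0.0381% of all tested probe sets did. The other members had mean pair differences between -0.05 and 0.11. The SD of the pair differences of M35601_at, 0.06, was below the SD between animals of one diet, 0.13 and 0.16, whereas for rc_AA875097_at it was 0.18 against 0.19 and 0.27. This did not hold for every member. For Proc the pair SD, 0.15, was above both SDs between animals, 0.12 and 0.11, and for J00735_at it was 0.15 against 0.08 and 0.18. The measures are unlike, since the pair SD is of differences between arrays and the other is of averages of arrays. Which is larger does not separate array noise from variation between animals.

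**Figure D4:**
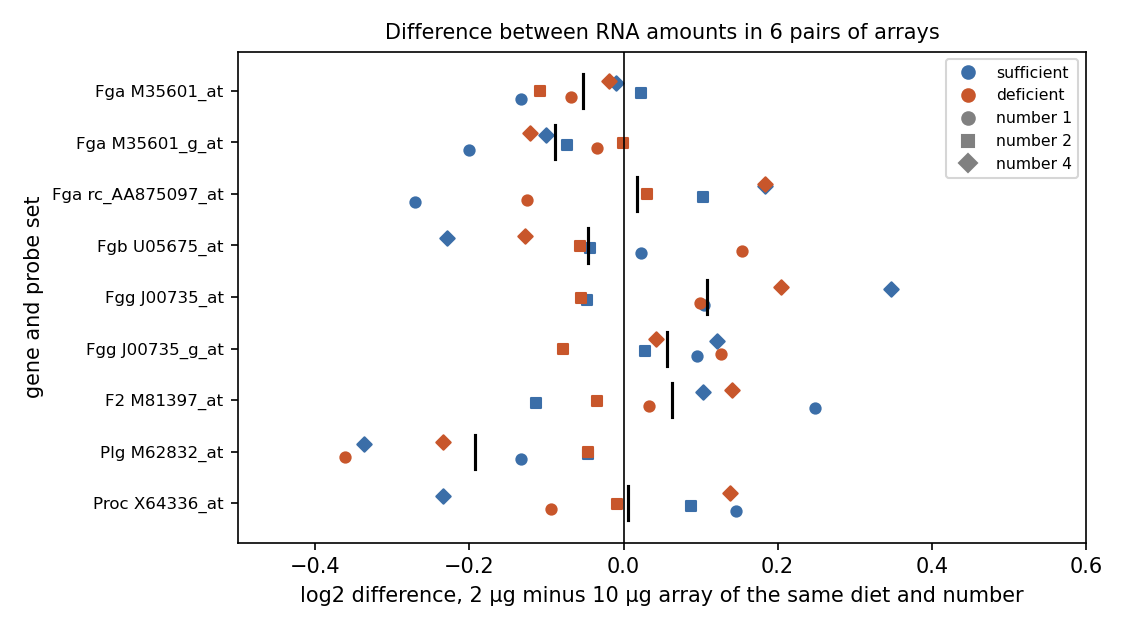
Log2 difference between the 2 µg and the 10 µg array of the same diet and number for the 9 tested member probe sets; each point is 1 of 6 pairs and the black bar their mean. All 6 points of Plg and of M35601_g_at lie below 0.

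The interaction of diet and amount did not pass for any member, although most differences were lower in the 2 µg arrays, which hold no array of animal 3 of either diet. Proc had a difference of 0.30 (SE 0.12) in the 10 µg arrays and 0.30 (SE 0.14) in the 2 µg arrays. Fga by M35601_g_at had 0.21 and 0.18, Fgb had 0.21 and 0.14, and Fgg by J00735_g_at had 0.17 and 0.08. The widest gaps were those of rc_AA875097_at, at -0.11 and -0.30, of F2, at 0.15 and 0.02, and of J00735_at, at 0.14 and 0.03. The interaction, tested directly as the 2 µg minus the 10 µg difference, ran from -0.18 to 0.00 over the members with SEs of 0.13 to 0.23. No member and 0% of all tested probe sets passed in limma. At an unadjusted p under 0.05 there were 0 members, against 1.83% of all tested probe sets. Of the 9 estimates 1 lay above 0, where 49.8% of all tested did. This fit took arrays as separate samples and ignored the pairing by number, with animal 3 at 10 µg alone. The estimates and the count of their signs therefore mix in differences between animals. For rc_AA875097_at, estimated at -0.18, the pair differences of numbers 1, 2 and 4 were -0.27, 0.10 and 0.18 in sufficient livers. In deficient livers they were -0.13, 0.03 and 0.18. With diet and number as a replicate block, again no member passed. A p that misses the threshold does not show that the differences were equal.

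Other genes of the pathway were taken from lists of clotting and fibrinolysis genes, with the brightest probe set standing for a gene. The lists were drawn up with earlier results of these data known. A gene could stand in several lists, as Kng2, A2m and Vwf did, so the lists are not independent. The counts at an unadjusted p under 0.05 given for lists stand against 14.5% of all tested probe sets in either direction. Of 17 listed procoagulant genes, 8 had a probe set with 1 symbol and 5 were tested. In limma 0 passed, 0 had an unadjusted p under 0.05, and 4 of the 5 differences were above 0 (median 0.11). The brightest was kininogen Kng2, at 14.65 ± 0.43 in sufficient and 15.05 ± 0.20 in deficient livers (difference 0.40, SE 0.19). Next was factor X, F10, at 12.35 ± 0.12 in sufficient and 12.47 ± 0.09 in deficient livers (0.11, SE 0.10). Of 10 inhibitors of coagulation, 7 were tested and 0 passed (1 at an unadjusted p under 0.05), with a median of -0.05. The brightest were heparin cofactor II, Serpind1, at -0.05 (SE 0.09), and the protein Z-dependent inhibitor Serpina10, at 0.14 (SE 0.12).

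Of 12 fibrinolysis genes, 5 were tested and 1 rose. This was S100a10, which with annexin A2 forms a cell-surface receptor for plasminogen. Its level rose from 6.53 ± 0.25 to 7.47 ± 0.19 (difference 0.94, SE 0.18, limma adjusted p = 0.0229). It no longer passed with no filter (adjusted p = 0.0619), with the number as a replicate block (0.0561), or in the arrays made from 2 µg, where the difference was 0.66 (adjusted p = 0.413). Leaving out 1 animal also ended the call for sufficient 2 (0.0666) and 3 (0.0602) and for deficient 1 (0.0624), 3 (0.0703) and 4 (0.0888). Its partner Anxa2 had a difference of 0.37 (SE 0.12, adjusted p = 0.160), and the protease inhibitor A2m one of 0.80 (SE 0.47, adjusted p = 0.499). The median of the 5 was 0.74, and 3 had an unadjusted p under 0.05. Plat, the tissue plasminogen activator, was too dim to be tested, at 5.70 ± 0.23 against 5.83 ± 0.13.

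All 5 tested genes of the vitamin K cycle list failed to pass in limma (1 at an unadjusted p under 0.05), and 1 of 5 differences was above 0 (median -0.30). The brightest were the calcium-binding Calu, at -0.23 (SE 0.11), and Gas6, a vitamin K-dependent ligand, at -0.33 (SE 0.15). Of 14 tested acute phase proteins of the interleukin 6 type, 0 passed (2 at an unadjusted p under 0.05), 13 differences were above 0, and the median of 0.16 was close in size to the members' 0.15. Haptoglobin, Hp, the brightest, was at 0.15 (SE 0.10) and hemopexin, Hpx, at 0.06 (SE 0.10). Of 13 tested regulators of fibrinogen transcription, 0 passed (4 at an unadjusted p under 0.05), with a median of 0.09. Among them Cebpb was at -0.12 (SE 0.15) and the interleukin 6 receptor Il6r at 0.48 (SE 0.19, adjusted p = 0.273).

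**Figure D5:**
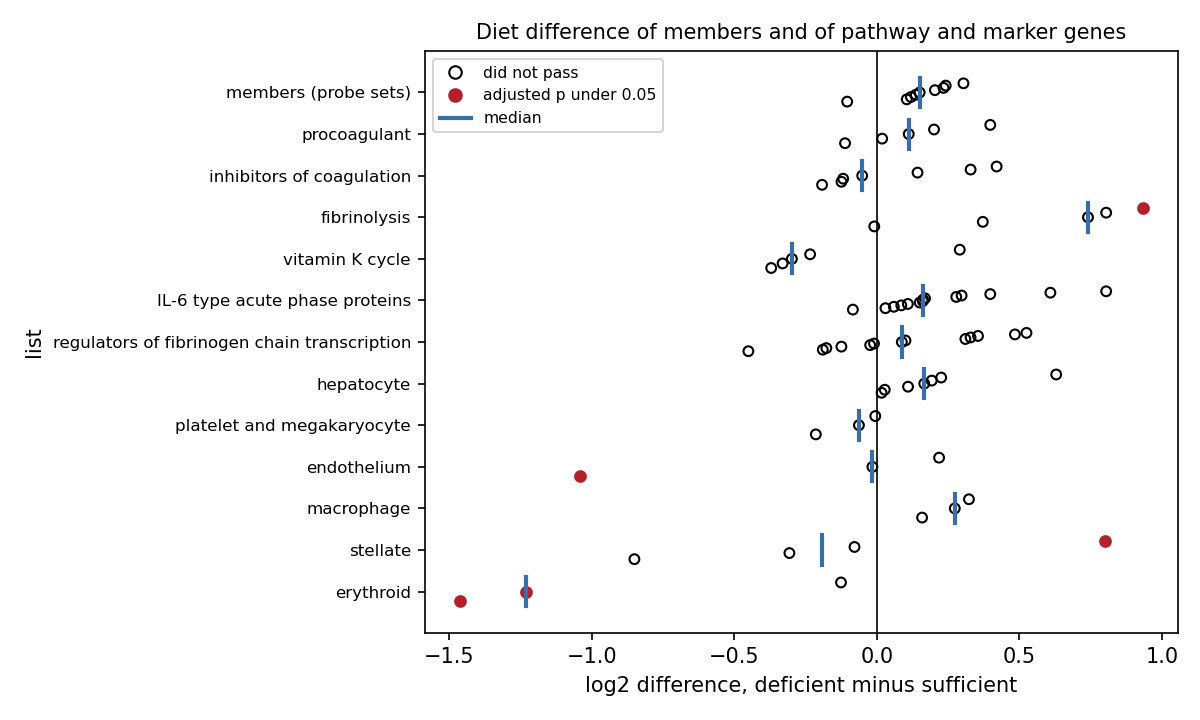
Deficient minus sufficient difference in log2 level for the 9 tested member probe sets and for each tested gene of the pathway and marker lists; filled points passed an adjusted p of 0.05 and the blue bar is the list's median. No member point is filled, and the filled points are S100a10, Lyve1, Vim, Hbb and Alas2.

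Markers of other cells in liver moved in part with the diet. Hepatocyte markers were bright in all animals. Of 3 tested platelet and megakaryocyte markers, 0 passed (0 at an unadjusted p under 0.05), with the chemokine Pf4 at -0.06 (SE 0.22) and the integrin Itga2b at -0.21 (SE 0.13), and the summed scaled intensity of the 4 with a probe set was 521 to 774 in sufficient and 502 to 636 in deficient livers. The marker Gp5 was under the filter on low values. Of 3 tested endothelial markers the receptor Lyve1 fell by 1.04 (SE 0.16, limma adjusted p = 0.00710), a call lost in the 2 µg arrays alone (adjusted p = 0.0947), whereas the receptor Kdr was at -0.02 (SE 0.24) and the adhesion molecule Pecam1 at 0.22 (SE 0.16). The list's median was -0.02. The sum over 4 markers, Lyve1 among them, was 567 to 697 in sufficient and 444 to 547 in deficient livers. Von Willebrand factor, Vwf, lay under the filter, with a difference of 0.36. Of 3 tested macrophage markers 0 passed (0 at an unadjusted p under 0.05), with the lysozyme Lyz2 at 0.16 (SE 0.25) and Cd14 at 0.27 (SE 0.28), at sums of 2458 to 3999 against 3457 to 4442, with Csf1r under the filter.

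Of 4 tested stellate cell markers the filament protein Vim rose by 0.80 (SE 0.16, adjusted p = 0.0343), while the other 3 had differences below 0. The collagen Col1a1 was at -0.85 (SE 0.24, adjusted p = 0.120), Col1a2 at -0.31 (SE 0.16) and the actin Acta2 at -0.08 (SE 0.28), and the list's median was -0.19. The sums over 5 markers, Des being under the filter, were 772 to 1300 in sufficient and 777 to 1184 in deficient livers. The Vim call was lost in 10 of 20 alternative fits, among them the common median (adjusted p = 0.0987), no filter (0.0645), no trend (0.0573), the 2 µg arrays alone (0.451), and the fits that left out any 1 of the 4 sufficient animals, deficient 2 or deficient 4 (highest adjusted p 0.0939). Of 3 tested erythroid markers the globin Hbb, by a probe set whose suffix marks a gene family, fell by 1.46 (SE 0.18) and Alas2 by 1.23 (SE 0.17), at limma adjusted p of 0.00178 and 0.00370, and the anion exchanger Slc4a1 was at -0.13 (SE 0.12). The erythroid sums were 8030 to 9759 in sufficient and 2374 to 4001 in deficient livers, without overlap. These sums were mostly Hbb, whose level in sufficient livers was 13.01 against 8.83 for Alas2 and 8.32 for Slc4a1. The part of these shifts in the member differences was not tested.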

How the data were processed

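Intensities were deposited by the authors as 1 table with a linear intensity per probe set and array. Per the labels, a commercial kit gave the RNA and Affymetrix procedures the targets; the program that computed the intensities is not given in the sources used here. The 59 control probe sets were left out, arrays were scaled to a 2% trimmed mean of 500, and log2 of the value plus 16 was taken. Probe sets under the 40th percentile of mean level (6.20) were left out, leaving 5244. Symbols came from the platform annotation; all 10 member probe sets matched a GRCr8 RefSeq gene by Entrez identifier.

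The mean shift over 6 pairs of arrays was removed and arrays of one diet and number were averaged. The test was limma 3.58.1's lmFit and trended eBayes in R 4.3.3, two-sided. Pairing of the amounts comes from the shared number and the data: deviations from group means correlated at 0.202 to 0.351 in all 6 pairs. Across diets the same number correlated at -0.0763 to 0.0672, and the main test did not pair animals of different diets by number. Such values do not exclude a factor shared by arrays of one number.

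Members and lists were chosen with earlier results of these data known. All member probe sets are described; from a list, the genes that passed and the 2 brightest are named, and Plat, Pecam1, Col1a2, Acta2 and the dim markers were added after their values were seen. Alternatives were other scaling, pseudocounts of 1 and 64, no filter or the 60th percentile, no trend, each amount alone, separate arrays, blocks, and leaving out each animal; those for S100a10, Lyve1, Vim, Hbb and Alas2 were chosen after seeing the data. The limma steps were tested on simulated arrays with known changes.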

Additional observations from a re-analysis of the deposited data

Results flagged for a closer look

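In 2 of 18 groups of 4 animals checked over the 9 tested member probe sets, 1 animal lay far from the other 3, with a gap to its nearest neighbour above 0.829 of the group's range; chance gives about 1 in 20. Both were F2. Sufficient animal 3 was at 12.81, with the nearest sufficient animal at 13.29 and a gap of 0.850 of the range. Deficient animal 2 was at 13.51, with the nearest deficient animal at 13.29 and a gap of 0.871 of the range.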

How the results depend on the processing

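Over 20 alternatives for diet, each of the 9 tested member differences kept its sign, and 0 members passed except with 14 separate arrays and amount as a covariate, where 1 passed, Proc. The sizes moved with the scaling. Under quantile normalization M35601_g_at was at 0.11, Fgb at 0.11 and J00735_g_at at 0.06, whereas J00735_at was at 0.15, Plg at 0.12 and Proc at 0.36. With a common median every member difference was lower, with F2 at 0.07, J00735_at at 0.05 and Plg at 0.04. The number across diets as a replicate block gave 0 members. For RNA amount, 0 members passed in 16 alternatives, the replicate block of diet and number included, and for the interaction 0 in 8. Over all tested probe sets, the count for diet was 90, and it was 33 in the 2 µg arrays alone, 349 with separate arrays, 250 with the random block, and 52 to 96 leaving out 1 animal (58 without sufficient animal 3, 52 without deficient animal 4). The count for amount was 0, and 2 with the block and 0 to 2 leaving out 1 animal.

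With quantile normalization the correlation fell to 0.383 for Fga and Fgg and 0.299 for Fgb and Fgg. Leaving out each animal gave r of 0.784 to 0.881 for Fga and Fgg and 0.674 to 0.841 for Fgb and Fgg; the cause was not tested. Amount differences near 0 changed sign: with a common median M35601_at was 0.010 and U05675_at 0.015, with quantile normalization rc_AA875097_at was -0.024 and J00735_g_at -0.00075, and leaving out 1 animal gave -0.048 to 0.0032 for M35601_at, -0.046 to 0.064 for rc_AA875097_at and -0.067 to 0.018 for U05675_at. The filter at the 60th percentile left S100a10 untested. The number of arrays limits every value.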

Other observations

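In the pairs of arrays at both amounts, the sign of the 2 µg minus 10 µg difference was the same in sufficient and deficient livers of one number in 22 of 27 cases over the 9 tested member probe sets and numbers 1, 2 and 4, against 56.1% over all tested probe sets. Several of these probe sets share a gene, and this pattern was noticed in the data and not tested. Over all tested probe sets, the pair differences of sufficient and deficient livers correlated at 0.0927, 0.0463 and 0.142 for numbers 1, 2 and 4, against 0.0161 to 0.0506 for the 6 pairings of unlike numbers, so that the value of number 2 lay within the range of unlike numbers.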
